A study of Gasterosteus aculeatus with 62 samples.

Results

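Male threespine sticklebacks (Gasterosteus aculeatus) carry an X and a Y chromosome, and 104 gene models annotated on the first stretch of the Y were followed here in 2 brain regions of 31 males. The models were chosen by name: the identifier contains the Y chromosome and a window number of 0 to 49, and the mean level over the 62 libraries was at least 1 CPM (counts of the model divided by the library total and scaled to a common library size). Of 199 models with such a number, 104 passed and 95 did not, 8 of them without a single count. The Y holds 657 of the 22295 deposited models, and at the same threshold 124 of 194 Y models passed in windows 50 to 99 and 162 of 264 in windows 100 and above. Of models not on the Y, 16537 of 21638 passed, a larger share than in each of these parts of the Y, and 412 had no count. Selection used the mean level only, and a few models reached it through 1 region, 1 male or 1 group of males. They are named where the threshold or the model is described.

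The males had built nests and then met 1 of 4 treatments, and the telencephalon and diencephalon were dissected 1 hour after the trial. Courtship males (n = 8) met a live egg-bearing female in a cage, predator males (n = 8) a model trout with odor cues, and tradeoff males (n = 8) a female and a model trout together, for which the labels name no odor. Control males (n = 7) met empty cages. Each male gave 1 library per region; strain, age and genotype are not given in the labels used here. The labelled regions were not checked against marker genes, because none of the 22295 identifiers matched the RefSeq table of gene names used here; for the same reason no role is given for any model.

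The X and Y of a fish with XY males descend from an ordinary pair of chromosomes, and many Y genes still have a related copy on the X. Short reads that fit both copies equally well align to several places, and the deposited counting left such reads out, so the values below are for reads placed on the Y model alone. The alignment options for X and Y copies are not given in the sources. Y models with a near-identical X copy may be undercounted, so a low count need not mean low expression. The identifiers come from MAKER, an annotation pipeline that combines gene predictors such as SNAP and Augustus with transcript and protein evidence, and the number after "gene-" is the window along the chromosome followed by a running number. Models named "masked ... processed" come from a predictor directly. CPM is not divided by transcript length, so levels are compared between libraries for 1 model and not between models.

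Library totals averaged 36.1 M counts in the telencephalon (SD 5.52, n = 31, range 26.2 to 51.1) and 35.1 M in the diencephalon (SD 5.21, n = 31, range 26.6 to 47.7). A single count was therefore worth 0.0196 to 0.0382 CPM. Reads aligned to several places made up 10.3% of the tallied reads on average (4.66% to 14.6% per library).

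The telencephalon library of predator male 42 stood apart. It was the lowest of the 31 telencephalon libraries for 50 of the 104 models and the highest for 11. Its summed level over the 104 models was 3028 CPM, against 3427 to 3794 CPM in the other 30 telencephalon libraries. The diencephalon library of the same male, at 3718 CPM, lay inside the range of the other diencephalon libraries, 3430 to 3755 CPM. Counts of the lowest and highest library over all models are not given here. The values of male 42 are therefore not read as particular to the Y models. Values without this telencephalon library are given beside several of the results that it moves.

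The 104 models were spread over 45 of the 50 windows. Windows 28 and 30 held no model, and windows 31, 32 and 37 held 3, 1 and 1 models that did not reach the threshold. Windows 22 and 46 held 6 each, the most of any window. In runs of 10 windows from the start, 27 of 65, 21 of 33, 20 of 30, 13 of 34 and 23 of 37 models passed. By origin of the model, 55 of 87 built from SNAP with evidence passed and 34 of 44 built from Augustus with evidence, against 8 of 37 taken from masked Augustus and 7 of 31 from masked SNAP predictions alone.

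Together the 104 models held 0.360% of the counts in gene models on average (0.303% to 0.379% per library). The mean level of a model was 1.03 CPM at the lowest, 15.2 CPM at the median and 328 CPM at the highest, with quartiles of 5.73 and 42.0 CPM. Counts were found in all 62 libraries for 103 models. The exception was maker-chrY-augustus-gene-16.25, with 14 libraries at 0. The threshold fell among models of similar level: maker-chrY-snap-gene-4.0 and maker-chrY-snap-gene-20.3 lay just inside at 1.03 and 1.10 CPM, and maker-chrY-snap-gene-49.110 and snap_masked-chrY-processed-gene-40.23 just outside at 0.914 and 0.866 CPM. Of the 104, 102 averaged at least 1 CPM in both regions and 2 did so in the diencephalon only, augustus_masked-chrY-processed-gene-29.29 and augustus_masked-chrY-processed-gene-38.31. Leaving out 1 male took maker-chrY-augustus-gene-23.16 to 0.979 CPM (without predator male 17) and maker-chrY-snap-gene-4.0 to 0.997 CPM (without male 32). The difference that each of these 4 models shows in the region or the male that carried it past the threshold is therefore given as a description.

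**Figure D1:**
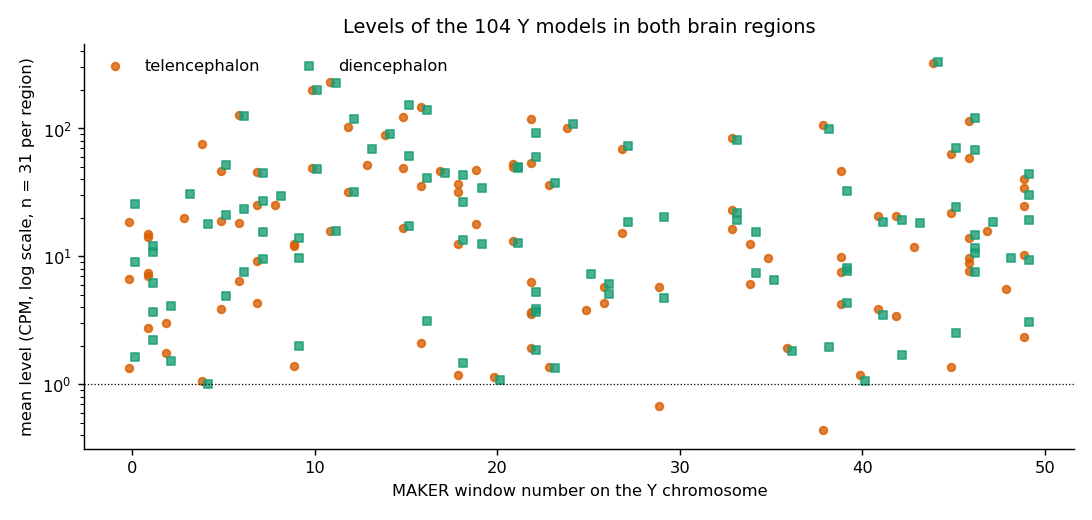
Mean level in CPM on a log axis (n = 31 libraries per region) of each of the 104 models against its window number, with circles for the telencephalon and squares for the diencephalon. For most models the 2 symbols lie close together; the 2 telencephalon points below the dotted line at 1 CPM are the models that reached the threshold through the diencephalon.

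The models with the highest levels varied little across males and regions. Maker-chrY-snap-gene-44.3 had 287, 325 and 356 CPM in the telencephalon (lowest, median and highest of 31 males) and 286, 330 and 356 CPM in the diencephalon. Maker-chrY-augustus-gene-11.16 had 202, 227 and 284 CPM in the telencephalon and 186, 225 and 259 CPM in the diencephalon. Maker-chrY-augustus-gene-10.57 had 153, 196 and 247 CPM in the telencephalon and 172, 199 and 241 CPM in the diencephalon. The ranges of the regions overlapped for all 3 models, and the telencephalon extremes of 287, 284 and 153 CPM were all from male 42. Their log2 fold changes of telencephalon over diencephalon were 0.05, 0.09 and 0.06 after TMM scaling (edgeR adjusted p = 0.0126, 0.00495 and 0.0973; with the male as a block, the last was 0.00787). Scaled by library totals, as CPM is, they were -0.01, 0.03 and 0.00 and none passed (edgeR adjusted p = 0.816, 0.365 and 0.960), so no direction is given for these 3 models. Over the 104 models the median coefficient of variation between males was 12.8% in the telencephalon (10.4% without male 42) and 10.7% in the diencephalon. The highest male was less than 2-fold above the lowest for 49 models in the telencephalon (71 without male 42) and for 76 in the diencephalon.

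The first comparison asked which models differ between the brain regions. In the telencephalon, 31 of the 104 models were higher and 40 lower than in the diencephalon (Benjamini-Hochberg adjusted p under 0.05 over 19321 models, by the quasi-likelihood test of edgeR). These 71 models are 68.3% of the 104, against 66.6% of all models tested, and over all models 33.0% had the telencephalon and 33.6% the diencephalon as the higher region. The share of Y models that differed between regions was thus near that of all models. The 40 include gene-29.29 and gene-38.31, which reached the threshold through the diencephalon. Without the telencephalon library of male 42, 35 of the 104 were higher and 40 lower in the telencephalon. The share of all models in that fit is not given here. The split by direction depended on the scaling: TMM, used in the fits, raised the telencephalon by 0.06 on the log2 scale relative to library totals, and with library totals, an alternative chosen after seeing the data, 19 of the 104 were higher and 48 lower in the telencephalon, against 26.5% and 40.8% of all models tested. In bulk tissue, a different mix of cells and a different amount of RNA per cell cannot be told apart.

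Most of these differences were small. The median absolute log2 fold change was 0.18 over the 104 models and 0.26 over the 71 that differed, against 0.23 over all models tested and 0.22 over those of at least 1 CPM. Over 2-fold differences passed the test for 7 of the 104 (3 with telencephalon and 4 with diencephalon the higher), or 6.73%, against 11.2% of all models tested and 9.54% of models not on the Y at the same level threshold. Of the 4, gene-29.29 and gene-38.31 had reached the level threshold through the diencephalon. Of the 33 models that did not pass, 29 had a 95% interval of the difference lying within 1.5-fold in either direction. By CPM, 0 models were higher in the telencephalon in all 31 males (2.64% of all models tested) and 13, gene-29.29 among them, were higher in the diencephalon in all 31 (12.5%, against 7.31% of all models). Without male 42 these counts over 30 males were 8 (7.69%, against 11.3%) and 16 (15.4%, against 14.1%). With TMM scaling they were 1 (0.962%, against 4.55%) and 6 (5.77%, against 5.33%) over 31 males, and 11 (10.6%, against 13.6%) and 10 (9.62%, against 11.8%) without male 42.

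**Figure D2:**
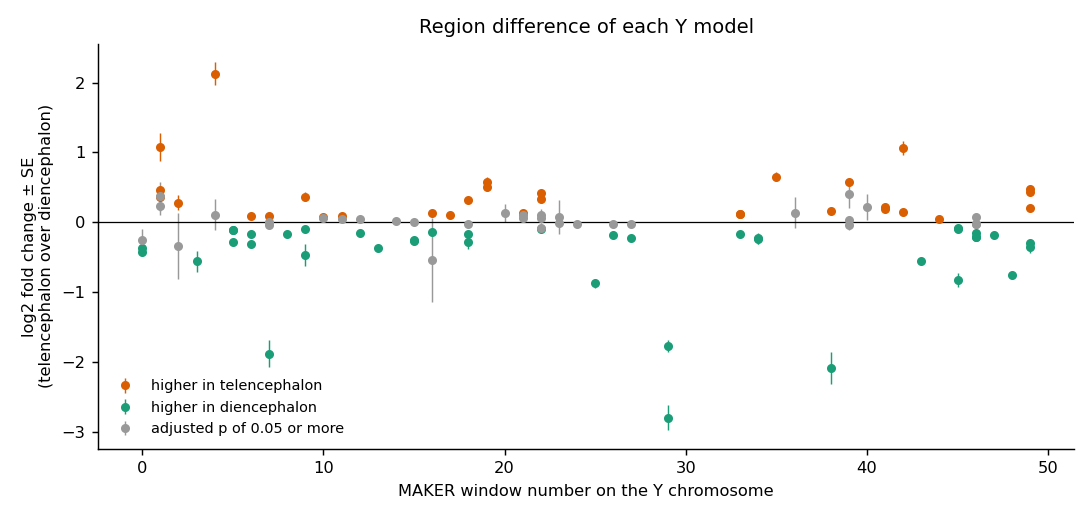
Log2 fold change of the telencephalon over the diencephalon for each of the 104 models, with its standard error as a bar, against window number; colours mark 31 models with telencephalon higher, 40 with diencephalon higher and the 33 that did not pass. Most points lie close to the line at 0, and models of both directions lie side by side along the whole stretch.

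With TMM scaling, the 2 directions were mixed along the chromosome. In runs of 10 windows from the start, 8, 7, 3, 5 and 8 models were higher in the telencephalon, and 12, 7, 6, 4 and 11 were higher in the diencephalon. In window 22, 2 of 6 models were higher in the telencephalon, 1 was higher in the diencephalon and 3 did not pass. In window 46, 3 of 6 were higher in the diencephalon and 3 did not pass. Both models of window 29 were among the 4 that were over 2-fold higher in the diencephalon. Among the other Y models at the same threshold, 76.6% differed between regions in windows 50 to 99 and 63.0% in windows 100 and above, against 69.9% of models not on the Y; these shares were not tested against each other.

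The model furthest above the diencephalon was maker-chrY-snap-gene-4.2. It had 3.73, 66.2 and 175 CPM in the telencephalon (lowest, median and highest of 31 males) and 9.61, 16.6 and 37.7 CPM in the diencephalon. It was higher in the telencephalon in 30 of 31 males, the exception being male 42 with 3.73 CPM in the telencephalon and 19.3 CPM in the diencephalon; without male 42 the lowest telencephalon value was 37.3 CPM. Its log2 fold change was 2.13 (SE 0.16, edgeR adjusted p = 1.13e-17), and 2.17 without the telencephalon library of male 42.

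The second was maker-chrY-augustus-gene-1.19. It had 0.329, 7.50 and 15.8 CPM in the telencephalon and 0.358, 3.86 and 6.13 CPM in the diencephalon. The ranges overlapped, and 26 of 31 males were higher in the telencephalon. Its log2 fold change was 1.08 (SE 0.20, edgeR adjusted p = 3.53e-06), and 1.12 without male 42, whose 0.329 CPM was the lowest telencephalon value; without that library the lowest was 2.68 CPM.

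The model furthest below the diencephalon was augustus_masked-chrY-processed-gene-29.29, with 0.135, 0.476 and 2.90 CPM in the telencephalon and 3.11, 4.65 and 6.17 CPM in the diencephalon. The regions did not overlap, and all 31 males were lower in the telencephalon. Its log2 fold change was -2.80 (SE 0.18), and -2.98 without male 42; no p is given, since its diencephalon level alone carried it past the threshold. The highest telencephalon value, 2.90 CPM, was from control male 30, and male 42 had 2.55 CPM.

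Augustus_masked-chrY-processed-gene-38.31 had 0.0321, 0.286 and 2.25 CPM in the telencephalon and 1.00, 1.86 and 3.18 CPM in the diencephalon. It was lower in the telencephalon in 30 of 31 males; the highest telencephalon levels were 2.25 CPM in male 42 and 1.60 CPM in male 30. Its log2 fold change was -2.09 (SE 0.23), and -2.41 without male 42, again as a description only. For all 4 models the fold change was further from 0 without the library of male 42.

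**Figure D3:**
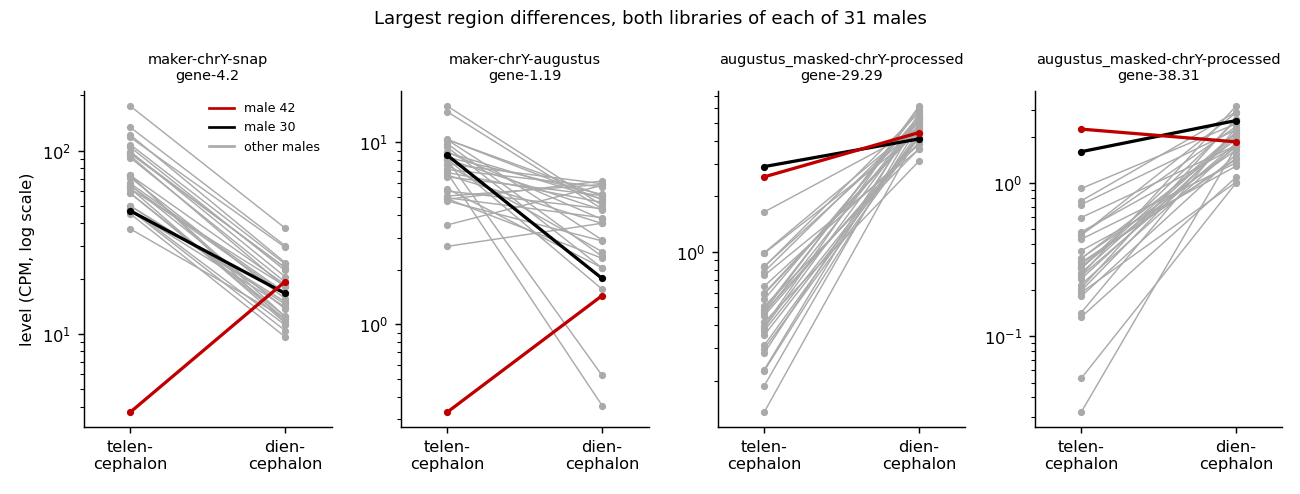
Level in CPM on log axes of the 4 models with the furthest region differences, with a line joining the telencephalon and diencephalon library of each of 31 males. Most lines slope the same way within a panel; male 42 (red) slopes the other way in 3 of the 4 panels, and male 30 (black) has high telencephalon values in the panels of gene-29.29 and gene-38.31.

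The direction of the summed level of the 104 models depended on the scaling. By CPM the telencephalon sum averaged 3567 (SD 132, n = 31) and the diencephalon sum 3628 (SD 82.4, n = 31), and 23 of 31 males were lower in the telencephalon. With TMM scaling the telencephalon sum averaged 3639 (SD 98.5, n = 31) and the diencephalon sum 3555 (SD 86.1, n = 31), and 4 of 31 males were lower in the telencephalon. No direction is therefore given for the sum, and no test was made.

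The next comparison asked which models differ between males in a way that both regions share. Each male was fitted with its own level in a model with treatment and region, so that the 2 libraries of a male stand as its replicates. Of the 104 models, 35 differed between males (adjusted p under 0.05, edgeR quasi-likelihood F-test, Benjamini-Hochberg), or 33.7%, against 41.6% of all models tested. At an unadjusted p under 0.05 the count was 42 (40.4%, against 50.4% of all models tested and 52.8% of models not on the Y at the same level threshold). Of models at the same threshold, 24.2% passed in windows 50 to 99 and 32.7% in windows 100 and above, against 43.5% of models not on the Y. DESeq2 called 46 of the 104 (44.2%, against 57.3% of all models tested) and voom 37 (35.6%, against 43.5%). Without male 42, edgeR called 45 (43.3%, against 50.9%). The 35 include gene-23.16 and gene-4.0, which reached the level threshold through 1 male each. They also include gene-16.25, which reached it through 18 males. Whether these differences lie in the animals or in the dissection and extraction of each animal was not tested.

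Most differences between males were narrow. For this, log2 of CPM plus 0.5 was taken as its deviation from the mean of the same region and treatment. The deviations of the 2 libraries of a male were then averaged. Adding 0.5 CPM narrows the spread of models near or below that level. The SD of these male means on the log2 scale was under 0.2 for 21 of the 35 models and over 0.4 for 9. This SD is not given here for all models, so the narrow spread is not read as particular to the Y models. By runs of 10 windows, 11, 9, 2, 5 and 8 models passed. These were 40.7%, 42.9%, 10%, 38.5% and 34.8% of the selected models in each run. Of the 104 models, 22 passed both the region and the male test (21.2%, against 24.0% of all models tested), and 13 passed between males alone (12.5%, against 17.6%). The region test alone was passed by 49 (47.1%, against 42.6%) and neither by 20 (19.2%, against 15.9%). The male with the highest level in the telencephalon was also the highest in the diencephalon for 15 of the 104 models (14.4%), against 15.4% of models not on the Y at the same threshold.

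Near absence was found for gene-16.25 in 13 males and for gene-2.21, described below, in 1 male. How many of all models meet the same rule is not given here. The pattern is therefore not read as particular to the Y models. Maker-chrY-augustus-gene-16.25 ranked first in the test between males, with levels in separate bands. In 13 males it had 0 to 0.115 CPM in the telencephalon and 0 to 0.0556 CPM in the diencephalon, and in the other 18 males 2.30 to 4.85 CPM in the telencephalon and 4.25 to 6.79 CPM in the diencephalon. No male fell between the bands in either region, and no male was in the low band in one region and the high band in the other. The 18 males of the upper band alone carried the model past the level threshold. Their distance from the other males is therefore given as a description, without a p.

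The low values of model gene-16.25 rested on very few reads. The 26 libraries of those 13 males held 19 counts in all, with 4 in the highest library and 0 in 14 libraries. A count of 0 allows up to 3 counts in a library, which sets the limit for calling the model absent; these limits cover counting error only. The low band held 4 of 8 courtship, 4 of 8 predator, 3 of 8 tradeoff and 2 of 7 control males, so that each treatment had males in both bands. Among treatments its p was 0.849 in the telencephalon and 0.913 in the diencephalon (edgeR, adjusted p = 1.00 in both).

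The region call of model gene-16.25 depended on whether the libraries of a male were paired. The log2 fold change between regions was -0.54 (SE 0.60, edgeR adjusted p = 0.441) without the male in the model. With the male as a block it was -0.51 (edgeR adjusted p = 0.000249). All 18 males of the upper band were lower in the telencephalon than in the diencephalon, as the plot of 4 models in 31 males shows.

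The neighbours described here did not share the low band. Models below the level threshold were not examined for such a band. Maker-chrY-snap-gene-16.10, in the same window and chosen here after its values were seen, had 28.5, 36.2 and 40.3 CPM in the telencephalon (lowest, median and highest of 31 males) and 34.8, 40.9 and 47.3 CPM in the diencephalon. Maker-chrY-snap-gene-16.15, chosen likewise, had 127, 143 and 191 CPM in the telencephalon and 122, 138 and 164 CPM in the diencephalon. Both were counted in every library, with less than a 2-fold range between males in each region.

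Maker-chrY-snap-gene-39.36 had the next smallest p between males (F 27.3, edgeR adjusted p = 1.66e-12). It had 1.39, 10.8 and 16.4 CPM in the telencephalon and 1.21, 8.12 and 15.5 CPM in the diencephalon. Control male 15 was the lowest and control male 12 the highest in both regions. The lowest 4 males were control males 15 and 40, courtship male 38 and predator male 37, with 1.39 to 3.36 CPM in the telencephalon and 1.21 to 2.48 CPM in the diencephalon. The other 27 males continued upward with no wide gap, at 4.64 to 16.4 CPM in the telencephalon and 3.29 to 15.5 CPM in the diencephalon. Its region difference passed only with the male as a block: 29 of 31 males were higher in the telencephalon, the log2 fold change was 0.41 (SE 0.20, edgeR adjusted p = 0.0673), and with the block it was 0.44 (edgeR adjusted p = 1.88e-08).

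Maker-chrY-snap-gene-2.21 had the widest spread after model gene-16.25, with an SD of male means (log2 of CPM plus 0.5) of 1.35, against 1.59 for model gene-16.25. It had 0.0267, 1.40 and 21.5 CPM in the telencephalon and 0.110, 1.47 and 26.0 CPM in the diencephalon. Control male 12 was the highest in both regions. Predator male 44 was near absence in both, with 0.0496 CPM in the telencephalon and 0.127 CPM in the diencephalon. It was the lowest in neither region: another predator male had 0.0267 CPM in the telencephalon, and a courtship male had 0.110 CPM in the diencephalon. The levels of the males formed no separate bands (F 11.4, edgeR adjusted p = 6.11e-08).

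Maker-chrY-augustus-gene-23.16 was high in a single male. Predator male 17 had 12.3 CPM in the telencephalon and 12.8 CPM in the diencephalon, against 0.473 to 1.84 CPM and 0.456 to 1.5 CPM in the other 30 males. Without male 17 its mean over the libraries was 0.979 CPM, below the threshold, so this male also decided that the model was included. The high values are therefore given as a description, and no p is given for this model. With 3-fold as the rule for 1 high male, the count was 1 of the 104 (0.962%), against 15 of 16927 models of at least 1 CPM (0.0886%). That count rests on a model that the male itself carried past the threshold, so it is not read as particular to the Y models.

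**Figure D4:**
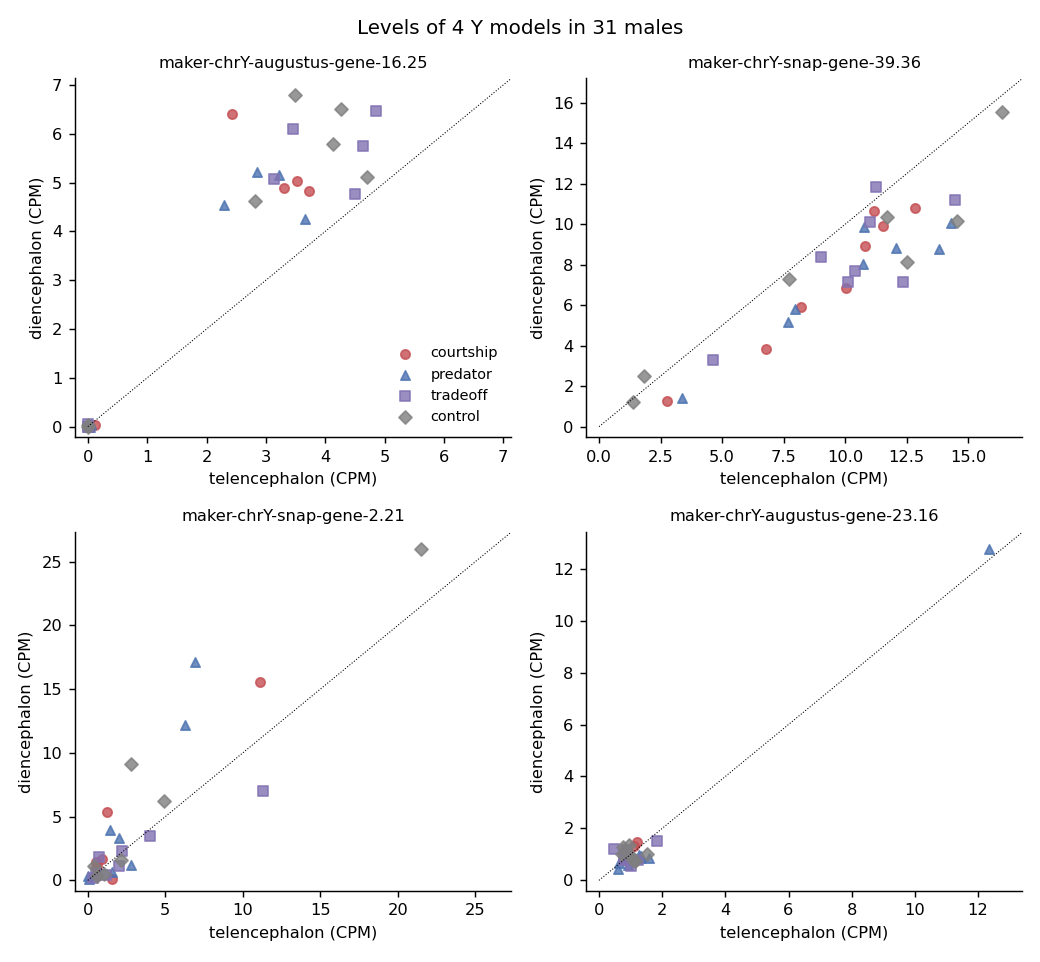
Level in CPM of 4 models in the diencephalon (vertical) against the telencephalon (horizontal), 1 point per male (n = 31), with marker shape and colour by treatment and a dotted line where both regions are equal. Model gene-16.25 falls into a cluster of 13 males near 0 and one of 18 males, model gene-39.36 spreads along the line, model gene-2.21 has a tail of high males, and model gene-23.16 has 1 high male.

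A further pair of neighbours, chosen after their values were seen, moved together. Maker-chrY-snap-gene-15.29 had 72, 123 and 143 CPM in the telencephalon and 105, 156 and 191 CPM in the diencephalon. Maker-chrY-snap-gene-15.30 had 28.7, 48.0 and 60.1 CPM in the telencephalon and 46.5, 61.6 and 77.3 CPM in the diencephalon. Within a library, the ratio of gene-15.29 to gene-15.30 was 2.30 to 2.88 in the telencephalon (median 2.51) and 2.24 to 2.72 in the diencephalon (median 2.49). The ratio thus varied less than either level, and the lowest telencephalon value of both was from male 42. Both were lower in the telencephalon, with log2 fold changes of -0.26 (SE 0.05, edgeR adjusted p = 2.24e-06) and -0.27 (SE 0.05, edgeR adjusted p = 1.80e-06).

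The last comparisons asked whether the treatments moved these models 1 hour after the trial. No model passed in any of them. Among the 4 treatments, 0 of 104 models differed in the telencephalon (0.016% of all models tested), with 2 at an unadjusted p under 0.05 against 3.79% of all models. In the diencephalon 0 of 104 differed (0.0% of all models), with 3 at an unadjusted p under 0.05 against 3.9% of all models (edgeR quasi-likelihood F-test, Benjamini-Hochberg). Without gene-23.16, which predator male 17 carried past the level threshold, these unadjusted counts were 1 (maker-chrY-snap-gene-7.14) and 2. Without the telencephalon library of male 42, 0 of 104 passed in the telencephalon. The unadjusted count there was 8, gene-23.16 and gene-29.29 among them, against 7.89% of all models. DESeq2 and voom also called 0 of the 104 in every treatment test of either region. A single fit of all 62 libraries called 1 among treatments in the telencephalon, maker-chrY-snap-gene-7.14 (edgeR adjusted p = 0.049956), whose highest telencephalon value was from male 42.

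Of the pairs of treatments 5 were tested, and courtship against predator was not run. For courtship against control, predator against control, tradeoff against control, tradeoff against courtship and tradeoff against predator, 0 of 104 passed in the telencephalon, as did 0.0% of all models in each. At an unadjusted p under 0.05 there were 1, 4, 1, 3 and 5 of the 104, against 2.97%, 3.59%, 2.24%, 4.52% and 5.35% of all models; without gene-23.16 the counts of the predator pairs were 3 (against control) and 4 (tradeoff against predator). The 1 for courtship against control was gene-29.29, which reached the level threshold through the diencephalon. Its telencephalon means were 0.400 CPM in courtship and 1.07 CPM in control males. Without the telencephalon library of male 42, the same 5 pairs had 3, 12, 3, 6 and 7 of the 104 at an unadjusted p under 0.05. The shares of all models were 5.40%, 8.44%, 3.55%, 8.46% and 12.1%. In each pair 0 of the 104 passed the adjusted threshold.

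In the diencephalon the same 5 pairs gave 0 of 104 each, and 0.0% of all models. At an unadjusted p under 0.05 there were 3, 3, 5, 5 and 2 of the 104, against 4.54%, 3.18%, 3.75%, 3.35% and 4.69% of all models. Without gene-23.16 the counts of the predator pairs there were 2 (against control) and 1 (tradeoff against predator). The precision of these estimates bounds what could have been missed. The median standard error of a log2 fold change over the 104 models against control was 0.10 in the telencephalon and 0.08 in the diencephalon. Over the 5 pairs, the 95% interval lay within 1.5-fold in either direction for 82 to 85 models in the telencephalon and for 87 to 91 in the diencephalon. The other models had wider intervals, and for them a change of that size is not bounded by these data.

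Maker-chrY-augustus-gene-23.16, the model with 1 high male, is given by treatment as a description only. In the telencephalon it had 0.764, 0.897 and 1.20 CPM (lowest, median and highest) in courtship males, 0.595, 1.28 and 12.3 CPM in predator males, 0.473, 0.855 and 1.84 CPM in tradeoff males and 0.725, 1.02 and 1.52 CPM in control males. Apart from predator male 17, the groups overlapped.

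The smallest p among treatments in the diencephalon was that of maker-chrY-augustus-gene-1.10. It had 0.331, 1.45 and 2.27 CPM in courtship males, 0.890, 2.18 and 5.33 CPM in predator males, 1.79, 2.84 and 5.0 CPM in tradeoff males and 1.06, 2.08 and 2.74 CPM in control males. Tradeoff males lay highest by their median, and every pair of groups overlapped. The p among treatments was 0.0165 (edgeR, adjusted p = 1.00), and the log2 fold change of tradeoff against courtship was 1.11 (SE 0.34, edgeR adjusted p = 1.00). In the telencephalon its p among treatments was 0.223.

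**Figure D5:**
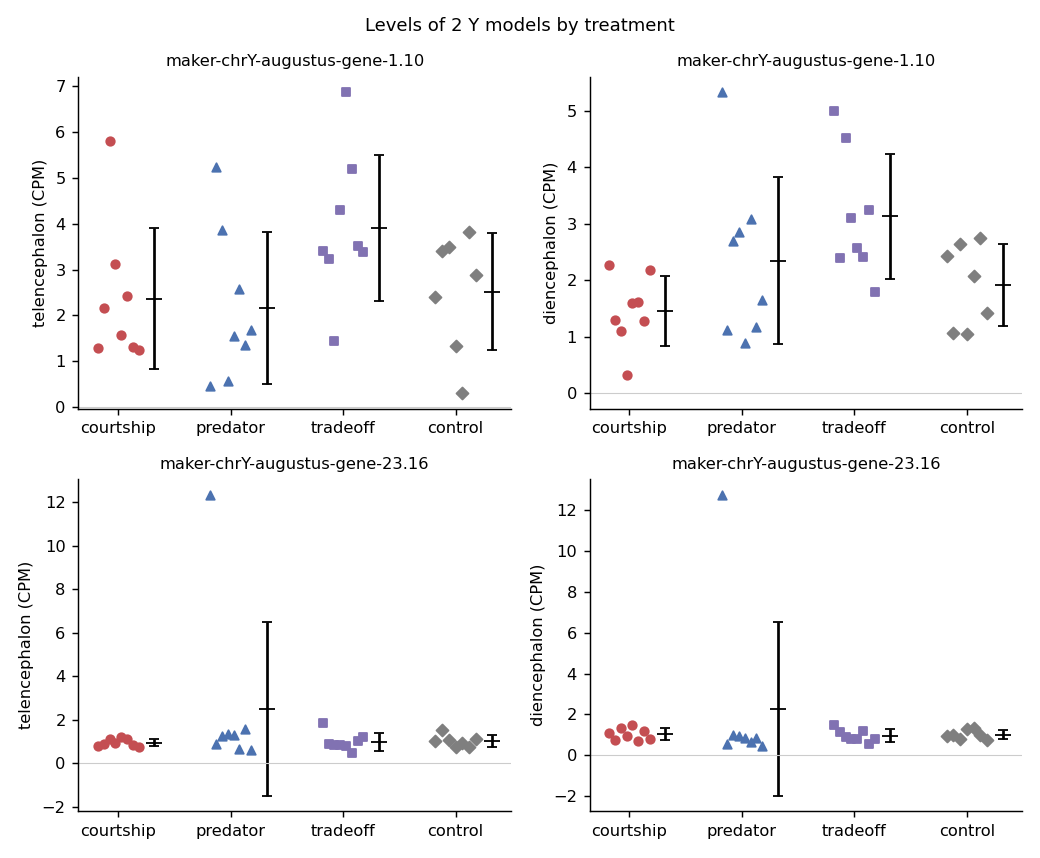
Level in CPM of model gene-1.10 (top), with the smallest treatment p in the diencephalon, and of model gene-23.16 (bottom), with 1 high male, 1 point per male in each region, with courtship, predator and tradeoff males (n = 8 each) left of control males (n = 7) and bars for the mean and SD. The groups of model gene-1.10 overlap, and the wide SD of predator males in model gene-23.16 comes with 1 male at 12.3 CPM in the telencephalon and 12.8 CPM in the diencephalon.

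Whether a treatment effect differed between the regions was tested as an interaction, and 0 of 104 models passed (0.0% of all models tested), with 2 at an unadjusted p under 0.05 against 1.75% of all models (edgeR; DESeq2 also called 0). The smallest p was that of maker-chrY-snap-gene-7.14, 0.0192 (edgeR, adjusted p = 1.00). In predator males this model had 1.93, 2.89 and 40.8 CPM in the telencephalon, against 2.25, 3.29 and 5.95 CPM in control males. The 40.8 CPM was from male 42, and the other 30 males, of all treatments, had 1.35 to 6.45 CPM in the telencephalon. In the diencephalon all 31 males had 13.0 to 18.7 CPM, with male 42 at 16.1 CPM. Without the telencephalon library of male 42 the interaction p was 0.129, and the log2 fold change between regions was -2.26 (SE 0.09), against -1.88 (SE 0.19) with it. In that fit 0 of 104 models passed, and gene-7.14 no longer had the smallest interaction p. Model gene-29.29, with a telencephalon mean of 0.680 CPM, had a smaller one.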

How the data were processed

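Polyadenylated RNA of 62 libraries was sequenced. STAR and HTSeq are named in the submitters' processing notes. Their versions and strand setting, and the annotation and build, are not given in the sources. Whether a model also counts reads from the opposite strand is therefore not known. The deposited values were raw counts per gene model. Of tallied reads, 44.5% on average fell outside every model, 10.3% had more than 1 placement and 0.705% were ambiguous; these lines were left out of library totals and tests.

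CPM was computed from the total over all 22295 models. Fits used edgeR 4.0.16 in R 4.3.3 (filterByExpr, minimum count 10 and total 15, TMM, robust quasi-likelihood) over all models that passed, 19321 in the fits of 62 libraries, 18714 in the telencephalon and 18942 in the diencephalon, with Benjamini-Hochberg adjustment over all of them. All 104 Y models passed. The region contrast averaged over treatments; treatments were fitted within each region. The scripts were tested on simulated counts. The members and lists were chosen with earlier results of these data known.

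The male numbers pair the libraries, since both come from 1 animal. The 2 libraries of a male deviated together from their group means (correlation 0.155 to 0.616, average 0.409), and 30 of 31 males matched themselves best. Between different males the average was -0.0130, which centering on group means holds near 0, so it is not a separate comparison. The main region fit had no block for the male, so its p-values treat the libraries of a male as independent.

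Alternatives were RLE size factors, no filter, DESeq2 1.42.0, voom (limma 3.58.1), the male as a block, library totals without TMM (added after seeing the data), 1 fit of all libraries, other CPM thresholds, and leaving out male 42 or males 42 and 30. Leaving out both males was planned for the region test only. Named models were the 3 of highest level, the 2 on each side of the threshold, the 2 of largest region difference each way, the 2 of smallest p and the 2 of largest SD between males, the model of smallest treatment p per region (in the telencephalon described without a p) and of smallest interaction p, and up to 2 models near absence in some males (under 0.1 of the median of the others).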

Additional observations from a re-analysis of the deposited data

Results flagged for a closer look

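The 19 models named above were examined in each of the 8 groups for 1 library far from the others (Dixon's criterion at 95%, which chance meets in about 1 of 20 groups). Of 152 groups, 22 had such a library, and 6 of these were the telencephalon library of predator male 42. Several of the 19 models were named for a wide spread, a small p or values already seen. The count of 22 is therefore not set against the chance rate.

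In predator males, the telencephalon library of male 42 held 284 CPM of maker-chrY-augustus-gene-11.16 (202 to 233 CPM in the other predator males), 3.73 CPM of maker-chrY-snap-gene-4.2 (47.3 to 73.4 CPM) and 72 CPM of maker-chrY-snap-gene-15.29 (106 to 133 CPM). It also held 2.55 CPM of augustus_masked-chrY-processed-gene-29.29 (0.226 to 0.780 CPM), 2.25 CPM of augustus_masked-chrY-processed-gene-38.31 (0.0321 to 0.323 CPM) and 40.8 CPM of maker-chrY-snap-gene-7.14 (1.93 to 3.05 CPM). Of these 6 models, gene-4.2, gene-29.29, gene-38.31 and gene-7.14 had a region difference over 2-fold. In these 4, the value of the library lay toward the diencephalon levels or beyond them. All 6 were listed because this library lay far from the others, so the shared direction is a description only. Gene-29.29 and gene-38.31 had reached the level threshold through the diencephalon. Why the library stands apart was not tested.

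Maker-chrY-snap-gene-2.21 stood out in 5 groups. Courtship male 21 had 11.1 CPM in the telencephalon (0.50 to 1.56 CPM in the other courtship males) and 15.6 CPM in the diencephalon (0.110 to 5.35 CPM). Control male 12 had 21.5 CPM in the telencephalon (0.381 to 4.92 CPM in the other control males) and 26.0 CPM in the diencephalon (0.315 to 9.09 CPM). Tradeoff male 1 had 11.3 CPM in the telencephalon (0.355 to 4.02 CPM in the other tradeoff males). Male 21 and male 12 stood out in both regions.

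Male 17 carried gene-23.16 past the level threshold, so its distance from the other males was in part selected and is given as a description. Predator male 17 had 12.3 CPM of maker-chrY-augustus-gene-23.16 in the telencephalon (0.595 to 1.59 CPM in the other predator males) and 12.8 CPM in the diencephalon (0.456 to 0.989 CPM). Courtship male 41 was far from the other courtship males for 4 models: 6.45 CPM of maker-chrY-snap-gene-7.14 in the telencephalon (1.35 to 3.66 CPM), 32.4 CPM of maker-chrY-snap-gene-16.10 in the telencephalon (35.6 to 37.5 CPM), and in the diencephalon 129 CPM of maker-chrY-snap-gene-15.29 (149 to 165 CPM) and 52.8 CPM of maker-chrY-snap-gene-15.30 (60.1 to 65.3 CPM).

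The remaining values were single. In the telencephalon, control male 4 had 175 CPM of maker-chrY-snap-gene-4.2 (46.9 to 97.6 CPM in the other control males), tradeoff male 25 had 14.7 CPM of maker-chrY-augustus-gene-1.19 (4.90 to 8.29 CPM in the other tradeoff males), courtship male 21 had 5.81 CPM of maker-chrY-augustus-gene-1.10 (1.24 to 3.12 CPM in the other courtship males) and tradeoff male 46 had 0.166 CPM of maker-chrY-snap-gene-4.0 (0.989 to 1.57 CPM in the other tradeoff males). In the diencephalon, predator male 24 had 1.87 CPM of maker-chrY-snap-gene-20.3 (0.659 to 1.22 CPM in the other predator males).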

How the results depend on the processing

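Over 107 alternative values of the counts reported, 105 lay within 1.5 times the reported count. Most of the 107 belong to treatment or interaction counts of 0, for which this means only that the count stayed at 0. For stability, the ranges of the region, male and selection counts below are the values to read. With library totals in place of TMM, chosen after seeing the data, 19 models had the telencephalon and 48 the diencephalon as the higher region. The other exception was the count of models differing among treatments in the telencephalon, which was 1 in the single fit of all 62 libraries. This was maker-chrY-snap-gene-7.14, with an edgeR adjusted p of 0.049956 beside male 42's 40.8 CPM. In the edgeR fit of the telencephalon alone its unadjusted p was 0.0182 with that library and 0.241 without it. The cause was not tested. Models higher in the telencephalon numbered 19 to 36, higher in the diencephalon 32 to 48, differing between males 34 to 49, and selected by level 80 to 114. The 49 came from leaving out males 42 and 30, which was not planned for that test (47.1%, against 52.7% of all models tested). In the region fit with a replicate block for the male, the counts were 35 (telencephalon higher) and 41 (diencephalon higher), against 31 and 40 without it; all 71 calls were kept with their direction and 5 were added: gene-10.57, gene-16.25, gene-20.3, gene-39.36 and maker-chrY-snap-gene-1.44. The share of all models called with the block is not given here. The 5 added calls are therefore not read as particular to the Y models. With the block, 0 models had a treatment effect that differed between regions. The 34 alternative values of the region differences of gene-4.2 (log2 fold change 2.07 to 2.21) and gene-1.19 (1.02 to 1.13) and of the between-male tests of gene-16.25, gene-39.36 and gene-2.21 kept direction and side of the threshold. Among these, gene-16.25 had reached the level threshold through its upper band of males alone, so its test is a description only. The log2 fold changes of gene-29.29 and gene-38.31, given as a description only, were -3.16 to -2.80 and -2.64 to -2.09. Depth limits models near 1 CPM most, since a single count was worth up to 0.0382 CPM.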
